A study of Mus musculus with 13 samples.

Results

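The 10 genes described here carry glucose into the cell and through glycolysis: the glucose transporter gene Slc2a1, the hexokinase genes Hk1 and Hk2, the phosphofructokinase genes Pfkl and Pfkp, the aldolase genes Aldoa and Aldoc, and Tpi1, Pgk1 and Ldha. They are listed by name as genes of this pathway, and all 10 were measured among 19938 genes. Their RNA was followed over 18 h in primary mouse embryonic fibroblasts grown in high-glucose medium with serum. The cells were kept at 32 °C, a mild hypothermia, or at the normal 37 °C. The study asked which transcripts follow the length of the cooling.

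The samples comprised 6 arrays at 32 °C, taken 0.5, 1, 2, 4, 8 and 18 h after the incubator was set to the lower temperature, and 6 arrays at 37 °C taken at the same times. One further array at 0 h and 37 °C is the start of both series, so the 2 series share that array. No treatment other than the temperature and no genetic change is stated for the cells. RNA of 3 dishes was pooled on each array and no time point had a second array, so the spread between cultures at one time is unknown and each test below draws its error from scatter around a time trend or between matched pairs. The array reports 1 intensity per transcript cluster, a group of probes for one transcribed locus, and values are given as log2 intensity. A level of one gene cannot be set against that of another on this platform, so changes are compared within a gene. Where a signal is placed beside that of the median gene, or summed over markers, it tells only how bright the probes were.

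Glycolysis splits glucose into pyruvate in the cytosol and yields ATP without oxygen. Glucose enters fibroblasts mostly through the facilitative transporter that Slc2a1 encodes (GLUT1), hexokinase traps it as glucose 6-phosphate, and phosphofructokinase makes the committed step. Aldolase and triose phosphate isomerase produce glyceraldehyde 3-phosphate, phosphoglycerate kinase makes the first ATP of the pathway, and lactate dehydrogenase turns pyruvate into lactate. Many of these genes are textbook targets of the hypoxia-inducible factor HIF-1, whose core recognition sequence in DNA contains ACGTG or GCGTG, and of MYC.

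Of the 10 genes, Aldoc alone passed a threshold between the temperatures. Its 32 °C minus 37 °C difference had a fitted slope from 0 h of 0.071 log2 units per sampling step. The Aldoc signal was below that of the median gene. The other 9 genes were also higher at 32 °C on average over the 6 matched times, by 0.015 to 0.13 log2 units, and none of these differences passed the test. Over time, 7 of the 10 genes had a negative slope at 32 °C and 8 at 37 °C, against 8645 and 8842 of all 19938 genes. None of the slopes of the 10 genes reached the adjusted threshold. Hk1 counts as positive in both series by its brighter cluster, and its RefSeq-annotated cluster, described below, was negative in both. Hk2, Pfkl, Tpi1 and Aldoa stood above their 37 °C counterparts at 8 h and below them at 18 h, Aldoa by only 0.026 log2 units. The other upper-pathway genes, Pfkp, Aldoc and Hk1 by its brighter cluster, stood above them at both times. Each time rests on a single pair of arrays, and the share of all genes with such a crossing was not counted.

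The 10 fibroblast markers looked up, among them Col1a1, Pdgfra and Thy1, had mean log2 intensities between 10.2 and 13.8. The 21 measured markers of macrophages, endothelium, epithelium, muscle, nerve and red cells had means between 4.77 and 10.3, the highest being the neural markers Map2 with 10.3 and Nes with 10.1. As levels of different probes cannot be ranked, these values describe the cells and do not test their label. The summed intensity of the 5 macrophage markers was 390 to 522 at 32 °C and 367 to 396 at 37 °C with 0 h included. That of the 3 neural markers was 1876 to 2488 at 32 °C and 2477 to 2629 at 37 °C, and that of the 10 fibroblast markers 49410 to 54487 and 53154 to 54663. Single markers differed. Cd68 and Csf1r were highest at 18 h at 32 °C, with 8.21 and 6.71, whereas Ptprc was lower at 32 °C at 0.5, 1, 2 and 4 h. At 18 h Map2 was 9.70 at 32 °C and 10.59 at 37 °C, and Nes 9.94 and 10.00. The part of any of these cell types in the results below was not tested. The array medians lay within 0.046 log2 units of each other. In bulk RNA of this kind a change in the share of a cell type and a change in RNA per cell cannot be told apart.

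The windows around 3 start sites are shown because their genes mark the extremes of the data: Aldoc separated between the temperatures, Pfkl had the steepest decline at 32 °C, and Ldha varied least at either temperature. Each window runs 5′ to 3′ on the gene's own strand over 250 bases before and 50 bases after an annotated start of transcription (RefSeq, GRCm38.p6). Capitals mark ACGTG and GCGTG on either strand, so that they also appear as CACGT and CACGC; the palindrome CACGTG holds ACGTG on both strands and counts as 2 matches.
Aldoc, chr11:78322823-78323122, + strand: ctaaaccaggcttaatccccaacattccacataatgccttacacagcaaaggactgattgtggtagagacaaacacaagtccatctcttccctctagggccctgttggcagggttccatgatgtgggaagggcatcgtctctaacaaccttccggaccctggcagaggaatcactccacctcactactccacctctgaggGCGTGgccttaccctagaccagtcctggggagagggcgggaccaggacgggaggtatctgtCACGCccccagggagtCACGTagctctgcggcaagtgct
Pfkl, chr10:78009758-78010057, - strand: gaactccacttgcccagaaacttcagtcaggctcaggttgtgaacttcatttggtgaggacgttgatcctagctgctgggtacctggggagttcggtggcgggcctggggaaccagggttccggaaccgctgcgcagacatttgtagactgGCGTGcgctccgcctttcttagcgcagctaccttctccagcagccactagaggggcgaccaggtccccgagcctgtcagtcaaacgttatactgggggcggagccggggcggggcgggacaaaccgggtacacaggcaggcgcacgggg
Ldha, chr7:46845554-46845853, + strand: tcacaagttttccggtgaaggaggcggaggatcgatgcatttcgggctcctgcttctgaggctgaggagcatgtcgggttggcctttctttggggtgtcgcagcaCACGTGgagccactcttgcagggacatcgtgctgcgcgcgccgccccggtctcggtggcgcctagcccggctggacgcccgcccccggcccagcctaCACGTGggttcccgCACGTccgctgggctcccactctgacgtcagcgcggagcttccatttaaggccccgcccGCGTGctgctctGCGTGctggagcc

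The Aldoc window shown had 1 match to ACGTG and 2 to GCGTG, that of Pfkl had 1 match to GCGTG, and that of Ldha had 5 matches to ACGTG and 2 to GCGTG. Aldoc and Ldha each have a further window, not shown, without ACGTG. It held 1 match to GCGTG for Aldoc and 2 for Ldha. RefSeq lists 15 start-site windows for the 10 genes, of which 12 held at least 1 of these motifs and 8 held ACGTG. Overlapping windows of Aldoa hold the same ACGTG match, so it enters these counts more than once. Among all 32851 windows in the table, 43.8% held at least 1 of the motifs, 19.6% held ACGTG and 32.4% held GCGTG. Among the 19177 windows of the genes tested, 51.7% held at least 1 of them and 21.6% held ACGTG. The window of Tpi1 held neither motif. A match of letters is a description of the sequence and was not tested as a binding site.

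The time courses were first compared by the 32 °C minus 37 °C difference at each time. Sampling points were numbered 0 to 6. The slope of that difference on this order, held at 0 for the shared 0 h array, is called the divergence. It is given in log2 units per sampling step with its standard error. A positive value means that the 32 °C arrays stood higher on average, later times weighing more. A gap that stays constant or narrows also gives one, as for Pfkp (0.22 at 0.5 h, 0.066 at 18 h). Over all genes the limma fit called 1.17% higher and 1.66% lower after Benjamini-Hochberg adjustment. Of the 10 genes 1 was called higher and none lower. The divergence was positive for 10 of 10 genes, with a median of 0.015 against 0.0020 over all genes, and 10722 of the 19938 genes had a positive value. With the RefSeq-annotated cluster of Hk1 described below, the Hk1 value is -0.0051 and the count is 9 of 10. The sign of the slope depends on holding the difference at 0 at 0 h. With a separate starting level for 32 °C the slope asks instead whether the gap grew after 0.5 h. It was then negative for Hk2, Pfkl, Pfkp, Aldoa and Tpi1, and the median was -0.0091. The mean difference given below, which does not use the 0 h array, was positive for 10 of 10 genes.

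Aldoc encodes the aldolase isoenzyme best known from brain. Its mean log2 intensity over the 13 arrays, 7.11, lay below the 7.54 of the median gene tested. How far it stands above background is unknown. Its log2 intensity at 0 h was 7.11. At 32 °C it was 7.22, 7.11, 7.37, 7.23, 7.12 and 7.36 after 0.5, 1, 2, 4, 8 and 18 h, against 7.06, 7.03, 7.04, 7.04, 6.81 and 6.87 at 37 °C.
Every array at 32 °C stood above every later array at 37 °C, which held for 0.863% of all genes. At 37 °C the 8 and 18 h arrays were the lowest, whereas at 32 °C no array lay below the start. The divergence was 0.071 ± 0.012 (SE, adjusted p = 0.0179), with a 95% interval of 0.045 to 0.098. The mean of the 6 paired differences was 0.26 ± 0.14 (SD, n = 6 pairs), a 1.20-fold higher intensity at 32 °C, and it was positive at 6 of 6 times. This mean did not pass the threshold across all genes (limma, adjusted p = 0.121). The call of the divergence was lost without the arrays of 4 h (adjusted p = 0.0558), 8 h (0.0855) or 18 h (0.0856), and in a fit that gave the 32 °C series a starting level of its own (0.369). Over all alternatives tried its adjusted p ranged between 0.0145 and 0.369.

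**Figure D1:**
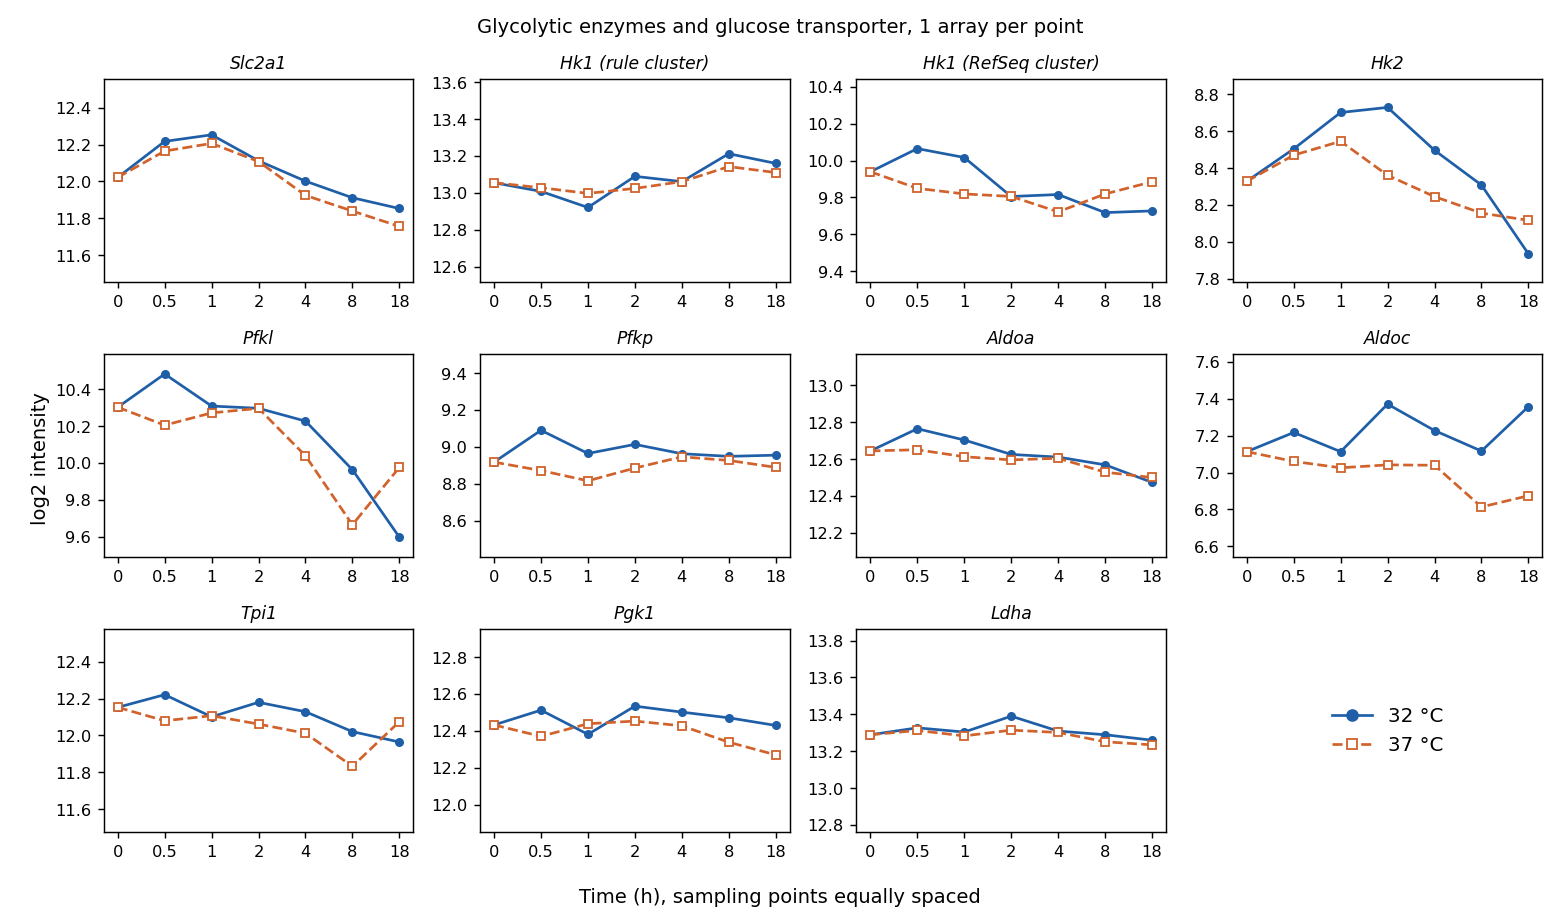
Log2 intensity of each gene against time in hours, with sampling points equally spaced and 1 array per point; filled circles and solid lines are 32 °C, open squares and dashed lines 37 °C, and the 0 h array is shared. All panels span the same height, so the separation of Aldoc and the crossing of Pfkl, Hk2 and Tpi1 between 8 and 18 h can be compared with the near overlap of Slc2a1 and Ldha.

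Glucose transport was carried by 1 member. Slc2a1 had a log2 intensity of 12.02 at 0 h. It was 12.22, 12.25, 12.11, 12.002, 11.91 and 11.85 from 0.5 to 18 h at 32 °C, against 12.16, 12.21, 12.11, 11.92, 11.84 and 11.76 at 37 °C. Both series went up in the first hour and then went down to their lowest value at 18 h, and the range within either series was far wider than the gap between them. The paired difference was 0.058 ± 0.032 (SD, n = 6 pairs), positive at 6 of 6 times, and its 95% interval of -0.030 to 0.15 included 0 (limma, adjusted p = 0.577). At 18 h the intensity was 0.890 of the 0 h value at 32 °C and 0.832 of it at 37 °C.

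Hexokinase is represented by an induced and a constitutive isoenzyme. Hk2, the isoenzyme that growth factors and HIF-1 are known to induce, began at 8.33. It was 8.50, 8.70, 8.73, 8.50, 8.31 and 7.94 at 32 °C, against 8.47, 8.55, 8.36, 8.25, 8.16 and 8.12 at 37 °C. The 32 °C series peaked at 2 h, 1.32-fold over the start, while the 37 °C series peaked at 1 h, 1.16-fold over it. The gap between them was widest at 2 h, 0.37 log2 units, and had turned to -0.18 at 18 h. Over the 6 pairs it averaged 0.13 ± 0.19 (SD), which did not pass the test (limma, adjusted p = 0.437).

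Hk1, the hexokinase of most tissues, has 2 transcript clusters in the annotation and they disagree. The brighter one, which the rule for genes with several clusters selects, is tied to Hk1 through a single sequence record that stands on 18 clusters of the array, 16 of them also annotated to the ribosomal protein gene Rpl17. Its log2 intensity was 13.01, 12.92, 13.09, 13.06, 13.21 and 13.16 at 32 °C, against 13.03, 12.997, 13.02, 13.06, 13.14 and 13.11 at 37 °C, from 13.05 at 0 h.
Over the 13 arrays it had a Pearson r of 0.88 with the mean of the clusters shared with Rpl17 and of -0.66 with the other Hk1 cluster. That other cluster, which carries the RefSeq accessions of Hk1, began at 9.94. It was 10.06, 10.02, 9.80, 9.82, 9.72 and 9.73 at 32 °C, against 9.85, 9.82, 9.81, 9.72, 9.82 and 9.88 at 37 °C. The cold series was thus the higher one up to 1 h and at 4 h and the lower one at 8 and 18 h. Its slope at 32 °C was -0.055 ± 0.017 (SE, limma, adjusted p = 0.156). The slope of the brighter cluster was 0.031 ± 0.016 (SE, adjusted p = 0.383), of opposite sign. Which cluster measures Hk1 was not determined, and every count over the 10 genes uses the brighter one unless stated.

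Phosphofructokinase is represented by its liver-type and platelet-type subunits, whose difference was not tested. Pfkl, the liver-type subunit, began at 10.30. It was 10.48, 10.31, 10.30, 10.23, 9.96 and 9.60 at 32 °C, against 10.21, 10.27, 10.30, 10.04, 9.66 and 9.98 at 37 °C. At 32 °C the intensity at 18 h was 0.614 of that at 0 h, and at 37 °C it was 0.797 of it, the lowest 37 °C array being that of 8 h. The slope at 32 °C was -0.12 ± 0.027 per step (SE), the lowest p of the 10 genes in that series, and it missed the threshold (limma, adjusted p = 0.0902). Without the 18 h array the slope was -0.071 (adjusted p = 0.289).
The difference between the temperatures was 0.30 at 8 h and -0.38 at 18 h, so its mean of 0.071 ± 0.25 (SD, n = 6 pairs) carries little information on a direction. The divergence of Pfkl was 0.0037 ± 0.021 (SE) and was negative without the arrays of 4 h or of 8 h. Pfkp, the platelet-type subunit, began at 8.92. It was 9.09, 8.96, 9.01, 8.96, 8.95 and 8.95 at 32 °C, against 8.87, 8.82, 8.88, 8.95, 8.93 and 8.89 at 37 °C. Every array at 32 °C again stood above every later one at 37 °C, narrowly from 4 h on, and the gap was widest at 0.5 h. The paired difference was 0.10 ± 0.079 (SD, n = 6 pairs; limma, adjusted p = 0.370).

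Aldoa, the aldolase of muscle and most cultured cells, began at 12.64. It was 12.76, 12.70, 12.62, 12.61, 12.57 and 12.47 at 32 °C, against 12.65, 12.61, 12.60, 12.60, 12.53 and 12.50 at 37 °C. Both series went down almost without interruption, and the gap between them shrank from 0.11 at 0.5 h to -0.026 at 18 h. Unlike Aldoc, the paired difference of Aldoa was only 0.042 ± 0.052 (SD, n = 6 pairs; limma, adjusted p = 0.723); the difference between the 2 aldolase genes was not tested.

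Tpi1, which interconverts the 2 triose phosphates, began at 12.15. It was 12.22, 12.10, 12.18, 12.13, 12.02 and 11.96 at 32 °C, against 12.08, 12.11, 12.06, 12.01, 11.83 and 12.07 at 37 °C. Like Pfkl it had its lowest 37 °C array at 8 h and its lowest 32 °C array at 18 h. Its paired difference was 0.075 ± 0.11 (SD, n = 6 pairs; limma, adjusted p = 0.568).

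Pgk1, which makes ATP from 1,3-bisphosphoglycerate, began at 12.43. It was 12.51, 12.38, 12.53, 12.50, 12.47 and 12.43 at 32 °C, against 12.37, 12.44, 12.45, 12.43, 12.34 and 12.27 at 37 °C. From 2 h on the 32 °C arrays were the higher ones, by up to 0.16 log2 units at 18 h. The divergence was 0.024 ± 0.011 (SE, limma, adjusted p = 0.290), the next after Aldoc by p. Pgk1 has 3 transcript clusters whose values differ by at most 0.016 log2 units, and which of these loci gave the signal cannot be told apart.

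Ldha, which makes the lactate dehydrogenase subunit that favours lactate production, began at 13.29. It was 13.33, 13.30, 13.39, 13.31, 13.29 and 13.26 at 32 °C, against 13.31, 13.28, 13.31, 13.30, 13.25 and 13.23 at 37 °C. Its whole range was 0.13 log2 units at 32 °C and 0.080 at 37 °C, the narrowest of the 10 genes in both series. The 32 °C array was higher at 6 of 6 times, by a mean of 0.030 ± 0.025 (SD; limma, adjusted p = 0.800), with a 95% interval of -0.057 to 0.12.

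**Figure D2:**
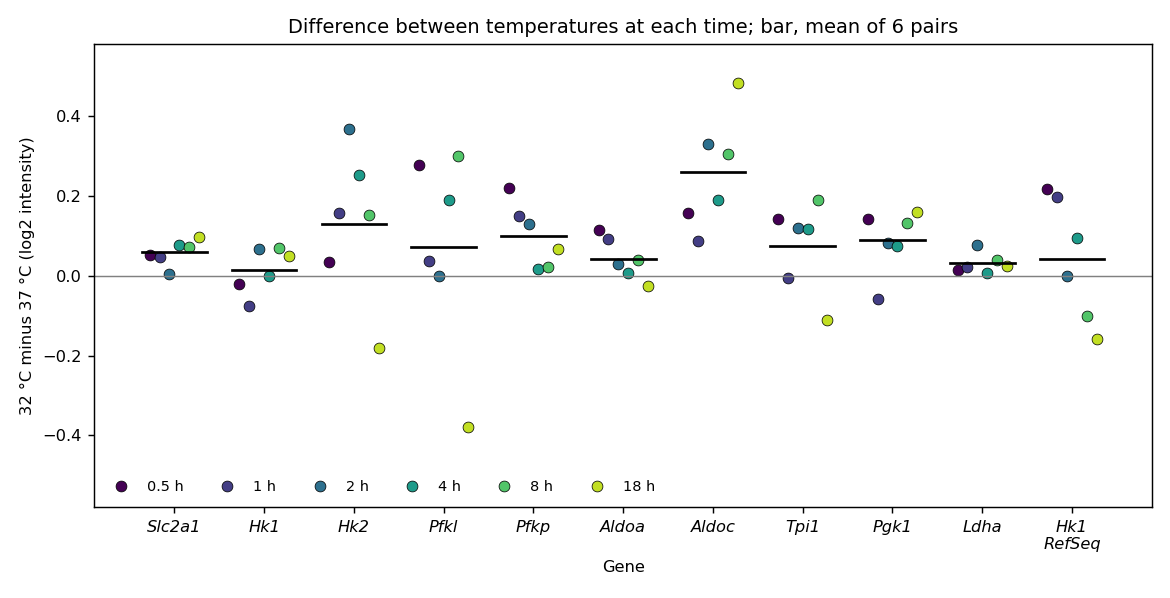
Difference in log2 intensity between the arrays at 32 °C and 37 °C of the same time, for each gene, with 1 point per time and a bar at the mean of the 6 pairs; Hk1 RefSeq is the cluster with RefSeq accessions. The points of Aldoc lie between 0.087 and 0.48, and the 18 h points of Hk2, Pfkl, Aldoa, Tpi1 and Hk1 RefSeq lie below 0.

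Across the 6 matched times the mean temperature effect was positive for 10 of 10 genes and for 10688 of all 19938 genes. Its median was 0.073, against 0.0070 over all genes. This comparison called 0.015% of all genes higher and 0.0552% lower, and none of the 10, of which Aldoc alone had an unadjusted p under 0.05. Slc2a1, Pfkp, Aldoc and Ldha were higher at 32 °C at 6 of 6 times, a pattern found in 4.79% of all genes. Seen by time, with the brighter Hk1 cluster, 9 of the 10 genes were higher at 32 °C at 0.5 h and 7 at 1 h. All 10 were at 2, 4 and 8 h, but only 6 at 18 h. Without Hk1 the counts were 9 of 9 at 0.5, 2, 4 and 8 h, 7 at 1 h and 5 at 18 h. The RefSeq-annotated cluster of Hk1 was higher at 32 °C at 0.5, 1 and 4 h. It was lower at 8 h (-0.10) and 18 h (-0.16), and marginally so at 2 h. With that cluster not all 10 genes were higher at 2 and 8 h. The share of all genes that were higher at 32 °C was 58.4% at 0.5 h and 54.6% at 18 h, and between 47.5% and 51.7% at the times in between. The 10 genes are steps of one pathway measured on the same arrays and are not independent of each other.

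**Figure D3:**
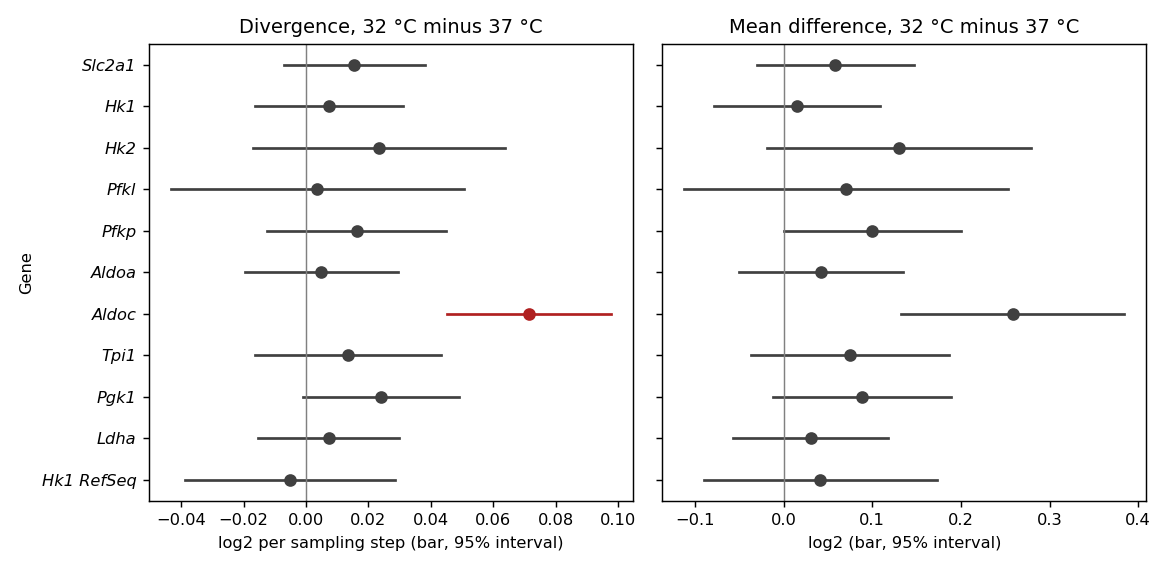
Divergence in log2 units per sampling step (left) and mean difference over 6 matched times in log2 units (right), 32 °C minus 37 °C, with 95% intervals from the limma fits; the gene past the adjusted threshold is red. Only the interval of Aldoc lies wholly above 0 in both panels.

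Each series was also tested alone. At 32 °C the limma trend called 0.0451% of all genes rising and 0.0502% falling, and none of the 10. At an unadjusted p under 0.05, 3 of the 10 had falling slopes at 32 °C (Slc2a1, Pfkl and Aldoa), against 9.35% of all genes, and 5 did at 37 °C (Slc2a1, Hk2, Pfkl, Aldoa and Aldoc), against 2.18%. None of these passes after adjustment, and at 37 °C the adjusted threshold was reached by 0.0% of all genes. The median slope of the 10 genes was -0.020 log2 units per step at 32 °C and -0.027 at 37 °C, against 0.0047 and 0.0022 over all genes. The order of these medians rests on Hk1: without it they were -0.033 at 32 °C and -0.029 at 37 °C, and with its RefSeq cluster -0.035 and -0.027. Without the 18 h array the median at 32 °C was -0.0039.
Kendall's rank test with exact p-values, which asks only for a monotonic order, found 2 of the 10 falling at 32 °C (Pfkl and Aldoa), against 4.74% of all genes, and 2 falling at 37 °C (Aldoa and Aldoc), against 1.43%. After Benjamini-Hochberg adjustment no gene of the 19938 passed in this test, the lowest adjusted p being 0.203 at 32 °C and 0.729 at 37 °C. Of the 10, Aldoa alone had an unadjusted Kendall p under 0.05 for a falling order at both temperatures, with a tau of -0.81 in each. Tau was also negative at both temperatures for Slc2a1, Hk2, Pfkl, Tpi1, Pgk1 and Ldha.

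The level of the 10 genes as a whole can be followed from 0 h. At 32 °C their median change was 0.11 log2 units at 0.5 h, 0.011 at 1 h, 0.093 at 2 h, 0.013 at 4 h, -0.010 at 8 h and -0.099 at 18 h. At 37 °C it was -0.036, -0.031, -0.018, -0.057, -0.14 and -0.15 at those times. The median change of all genes stayed between -0.0041 and 0.035 in both series. The median at 32 °C was thus above the start up to 4 h, and at 37 °C it was below the start throughout. At 18 h, 7 of the 10 genes at 32 °C and 9 of the 10 at 37 °C were under their 0 h value, as were 8419 and 9573 of all 19938 genes. Without Hk1 the median change at 18 h was -0.17 at 32 °C and -0.16 at 37 °C, so the order of the temperatures at that time rests on Hk1.

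**Figure D4:**
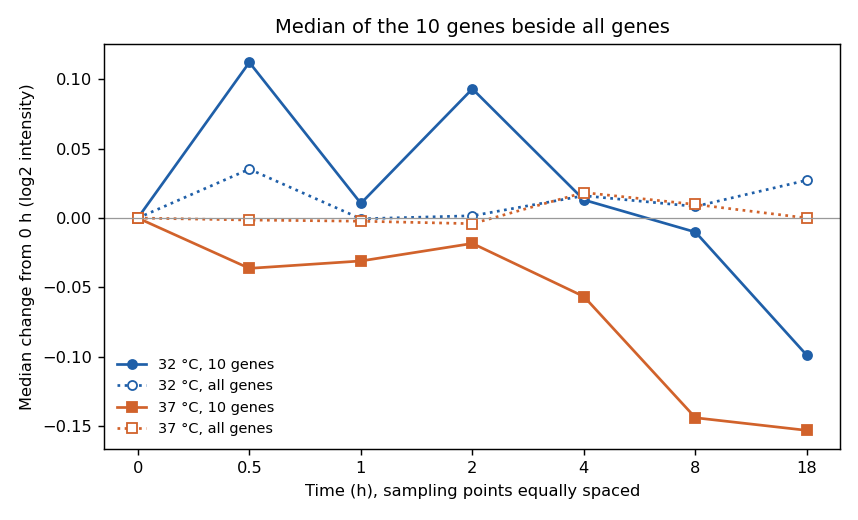
Median change from 0 h in log2 intensity against time in hours, sampling points equally spaced, for the 10 genes (filled symbols, solid lines) and all 19938 genes (open symbols, dotted lines), at 32 °C (circles) and 37 °C (squares). The medians of the 10 genes at 18 h are -0.099 at 32 °C and -0.15 at 37 °C; without Hk1, whose brighter cluster is doubtful, they are -0.17 at 32 °C and -0.16 at 37 °C.

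Leaving aside Hk1, 36 of 36 pairs of genes had a positive Pearson correlation over the 13 arrays, with a median of 0.59 and a highest value of 0.88 between Pfkl and Tpi1. The brighter Hk1 cluster correlated at -0.81 with Slc2a1 and -0.74 with Pfkl, and the RefSeq cluster at -0.037 with Aldoc and -0.069 with Pgk1. These values describe arrays that share a start, a time order and a scaling. Slc2a1, Hk2, Pfkl and Aldoa correlated at 0.78 to 0.86 with each other, whereas Aldoc correlated at 0.77 with Pgk1 and at 0.22 to 0.30 with those 4 genes.

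The genes on the array most like Aldoc over the 13 arrays were Cryz, a quinone oxidoreductase, with a Pearson r of 0.95, Sod1, the cytosolic superoxide dismutase, with 0.94, Pafah1b3 with 0.93, the annexin gene Anxa8 with 0.92 and the nucleosome-binding protein gene Hmgn1 with 0.91. Those most like Pfkl were Slc16a3, the lactate exporter MCT4, with 0.94, Gfpt2, of the hexosamine pathway, with 0.93, the cyclin gene Ccnb2 with 0.93, the fatty acid desaturase gene Fads1 with 0.92 and Ybx3 with 0.92.

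Beyond the 10 genes, 48 further genes of glucose handling were listed by role, and 41 of them were measured. In the divergence 3 of the 41 were called higher at 32 °C, Slc16a1, Txnip and Arrdc4, and 1 lower, Pdk4. Over all genes 1.17% were called higher and 1.66% lower. The list was drawn up with earlier results of these data known, so these counts do not test the pathway. The divergence was positive for 32 of the 41, with a median of 0.013. Of the 9 glucose and lactate transporters 1 was called, of the 10 other enzymes of glycolysis none, of the 6 genes that set phosphofructokinase flux none, of the 9 genes of pyruvate and lactate fate 1 and of the 7 regulators 2.

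Among the transporters, Slc16a1 encodes MCT1, which moves lactate and pyruvate across the plasma membrane. From 9.53 at 0 h it was 9.51, 9.58, 9.78, 9.88, 9.92 and 9.52 at 32 °C, against 9.47, 9.52, 9.44, 9.36, 9.29 and 9.38 at 37 °C. The gap was widest at 8 h, 0.64 log2 units, and narrow again at 18 h. The divergence was 0.080 ± 0.018 (SE, limma, adjusted p = 0.0464), a call lost without any one of the 0.5, 1, 2, 4 and 8 h arrays, in ranks, on the log2 time axis and with a separate starting level for 32 °C (adjusted p up to 0.546). The related transporter gene Slc16a7 had a divergence of -0.032 ± 0.013 (SE, adjusted p = 0.211).

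The mean differences of the 10 other enzymes lay between -0.024 for Eno2 and 0.13 for Eno3. Eno2, the neuronal enolase, varied most, from 0.51 at 1 h to -0.39 at 18 h (SD 0.32 over 6 pairs). Eno3, a muscle-type enolase, and Pkm, which makes pyruvate kinase of most tissues, were higher at 32 °C at 6 of 6 times, by 0.13 ± 0.084 and 0.11 ± 0.054 log2 units (SD, n = 6 pairs). Neither passed the test of the mean difference (limma, adjusted p = 0.267 and 0.305). The bifunctional enzyme of Pfkfb3, which raises the activator fructose 2,6-bisphosphate, had lower values at 32 °C at 6 of 6 times, with a divergence of -0.036 ± 0.011 (SE, limma, adjusted p = 0.113). That of its relative Pfkfb2 was -0.018 ± 0.013 (SE, adjusted p = 0.523).

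Pyruvate dehydrogenase kinases hold pyruvate back from mitochondrial oxidation. Pdk4, the starvation-induced kinase, began at 9.20. It was 8.98, 9.21, 9.21, 9.06, 8.96 and 8.72 at 32 °C, against 9.18, 9.23, 9.40, 9.51, 9.54 and 9.39 at 37 °C. The 32 °C array was lower at 6 of 6 times and the gap was widest at 18 h. The divergence was -0.10 ± 0.013 (SE, limma, adjusted p = 0.00647), a call lost with a separate starting level for 32 °C (adjusted p = 0.157). Pdk1, a HIF-1 target in hypoxia, had a divergence of 0.039 ± 0.013 (SE, limma, adjusted p = 0.157).

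Txnip and Arrdc4 are related alpha-arrestins whose transcription is known to follow glucose metabolites and whose proteins restrain glucose uptake. Txnip began at 10.32. It was 10.27, 10.38, 10.49, 11.08, 11.24 and 11.32 at 32 °C, against 10.06, 9.79, 10.19, 10.72, 10.88 and 10.84 at 37 °C. It was thus higher at 32 °C at 6 of 6 times, by 0.38 ± 0.13 log2 units (SD), and went up late in both series. Its divergence was 0.092 ± 0.017 (SE, limma, adjusted p = 0.0233), and its mean difference was also called (adjusted p = 0.0499). The divergence call was lost without 4, 8 or 18 h (adjusted p = 0.0671, 0.0976 and 0.0826), and that of the mean difference without any one time (0.0630 to 0.171). With a separate starting level for 32 °C the divergence was 0.021 (adjusted p = 0.812), and in ranks its adjusted p was 0.172. The call of the mean difference was also lost after quantile normalization (adjusted p = 0.0581), in ranks (0.163) and with the mean of clusters (0.0524).
Arrdc4 began at 8.69. It was 8.64, 8.68, 8.89, 9.29, 9.65 and 9.80 at 32 °C, against 8.48, 8.31, 8.45, 8.67, 8.85 and 8.85 at 37 °C. Its divergence was 0.16 ± 0.010 (SE, limma, adjusted p = 0.000213), the largest of the 41 genes, and this call was lost with a separate starting level for 32 °C (adjusted p = 0.113). Both genes also rose within the 32 °C series, with slopes of 0.20 ± 0.027 for Txnip and 0.21 ± 0.027 for Arrdc4 (SE, adjusted p = 0.0375 each), calls that were lost without any one time except 2 h for Txnip and except 0 or 2 h for Arrdc4 (adjusted p up to 0.171), and in ranks (0.123 for Txnip and 0.109 for Arrdc4).

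**Figure D5:**
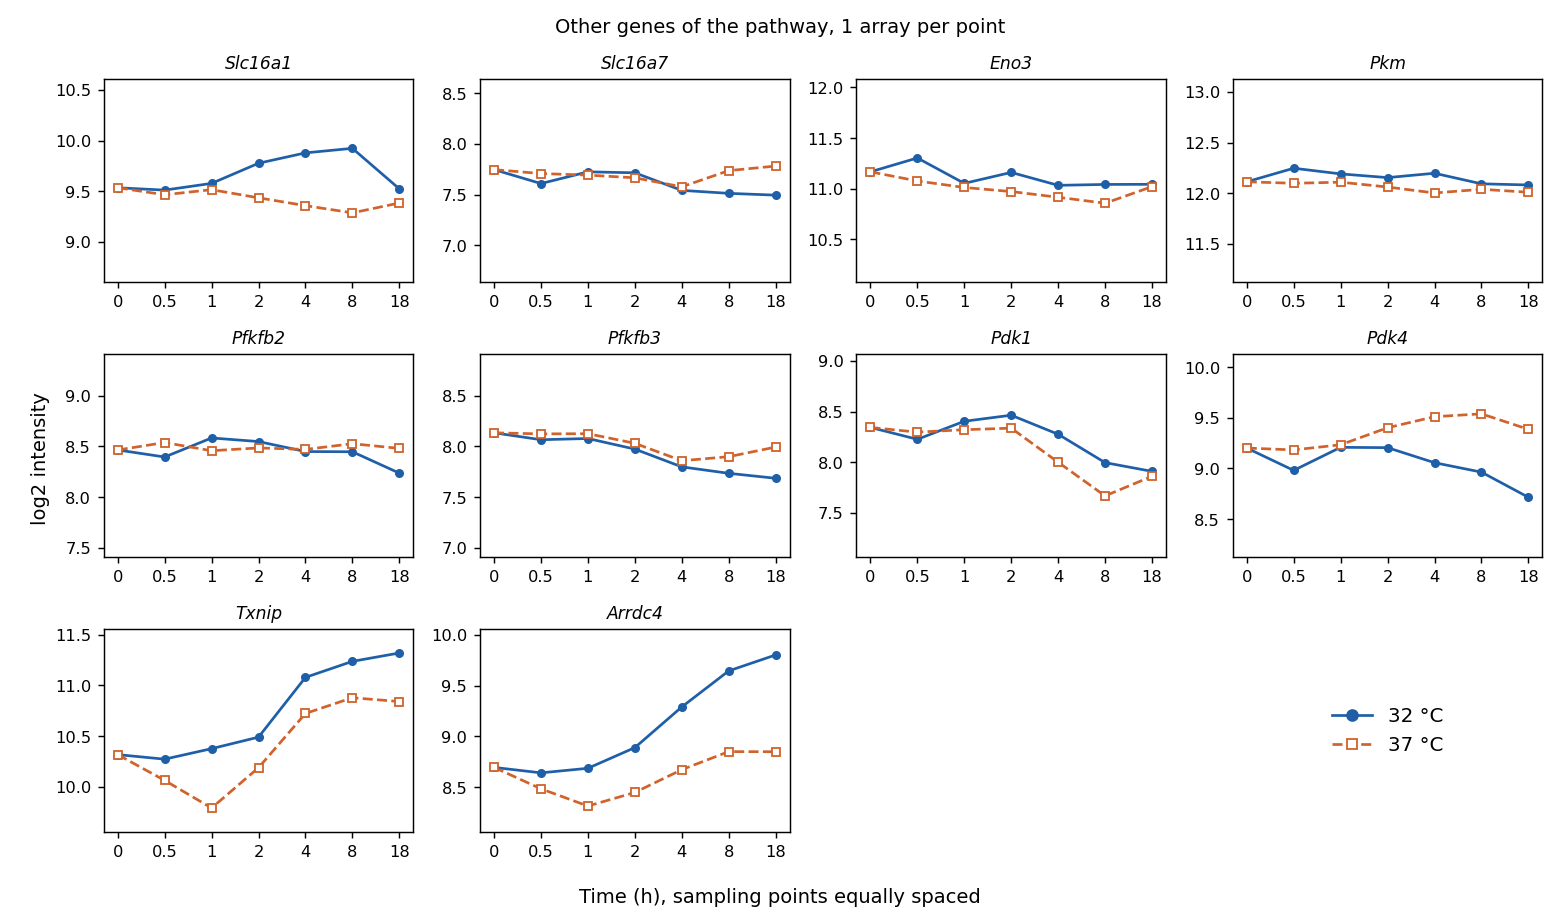
Log2 intensity against time in hours, sampling points equally spaced and 1 array per point, of the 10 pathway genes named by threshold or lowest p. Eno2, described in the text for its spread, is not shown. Filled circles and solid lines are 32 °C, open squares and dashed lines 37 °C. Arrdc4 reached 9.80 at 32 °C against 8.85 at 37 °C at 18 h, and Pdk4 ended at 8.72 at 32 °C against 9.39 at 37 °C.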

How the data were processed

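RNA was measured on 13 Affymetrix mouse gene arrays. The authors deposited linear intensity values, used here after a log2 transformation; their summarization and normalization are not stated, and signal over background is unknown without detection calls. Clusters with several gene symbols were left out, and the brightest cluster of a gene was used. Models were fitted over all 19938 genes with limma 3.58.1 (R 4.3.3) and Benjamini-Hochberg adjustment (threshold 0.05). They were a slope on sampling order per series (7 arrays), the divergence with time as a block (13 arrays), and the mean difference of 6 pairs. In the divergence the difference was set to 0 at 0 h. The 0 h array had a block of its own there and did not affect the estimate. Kendall's p-values were exact and two-sided. The fits were tested on simulated data. Named were the 10 genes, pathway genes past a threshold or with the 2 lowest p of their role in the divergence, and the 5 genes of highest correlation with Aldoc and Pfkl. Eno2 was described outside this rule, for the spread of its differences. The 10 genes and the lists were chosen with earlier results of these data known. As dishes were pooled, p-values cover scatter between time points only, and precision is limited by how many arrays there are. Alternatives were quantile normalization, ranks from 0 to 100, genes above the median signal, the mean of clusters, each time left out, a log2 time axis and a separate 32 °C level. RefSeq clusters first, and the genes without Hk1, were added after the data were seen.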

Additional observations from a re-analysis of the deposited data

Results flagged for a closer look

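Results are given here because the courses at 32 °C and 37 °C differed by the limma test of the divergence itself (log2 units per sampling step, 32 °C minus 37 °C). They were Aldoc with 0.071, Arrdc4 with 0.16, Txnip with 0.092, Slc16a1 with 0.080 and Pdk4 with -0.10. Over the alternatives the adjusted p ranged between 0.0145 and 0.369 for Aldoc, 0.000110 and 0.113 for Arrdc4, 0.0140 and 0.812 for Txnip, 0.0302 and 0.546 for Slc16a1, and 0.00448 and 0.157 for Pdk4. The highest of each range came from the fit with a separate starting level for 32 °C.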

How the results depend on the processing

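The number of the 10 genes called was the same under every alternative in the trends and the mean effect, and in the Kendall test at 32 °C 3 instead of 2 were falling after quantile normalization and in ranks. In the divergence, the 1 gene called higher became 0 among genes above the median signal, where Aldoc was not tested, and 0 with a separate 32 °C level. It was 0 to 1 with one time left out. The median divergence was -0.0091 with the separate level, in which the difference is no longer held at 0 at 0 h. In that fit the divergence was -0.035 for Hk2, -0.066 for Pfkl, -0.036 for Pfkp, -0.025 for Aldoa and -0.019 for Tpi1, and the cause was not tested. Slopes near 0 changed sign: that of Pfkp at 32 °C was 0.0066 after quantile normalization and 0.080 in ranks per step, and with one time left out the slopes at 32 °C ranged between -0.022 and 0.0038 for Pfkp, -0.0050 and 0.0090 for Pgk1, and -0.013 and 0.00097 for Ldha. The divergence of Pfkl ranged between -0.018 and 0.047 in the same way. For Hk1 the slope at 32 °C was -0.012 with the mean of clusters and -0.055 with the RefSeq-annotated cluster, which gave -0.011 at 37 °C and a divergence of -0.0051. Over all genes the 234 higher and 331 lower calls of the divergence became 3 and 1 with the separate level, 107 and 60 in ranks, and 16 and 24 without 8 h. The calls of the 32 °C trend, 9 rising and 10 falling, became 61 and 150 among genes above the median signal, 26 and 26 after quantile normalization, and 30 and 65 on the log2 time axis. The 3 higher and 11 lower calls of the mean effect became 0 and 0 after quantile normalization and in ranks. Over single genes and counts of all genes, 575 values under alternatives were like the main ones. A call was lost in 41 cases, all of them of Aldoc, Slc16a1, Pdk4, Txnip or Arrdc4, a sign changed in 18, and a count moved in 51. Leaving out the shared 0 h array would not change the divergence, where that array has a block of its own, so this was not run. Medians in ranks or on the log2 time axis are on another scale and are not given.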
